A study of Homo sapiens with 6 samples.

Results

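The cohesin genes described here are SMC1A, SMC3, RAD21, STAG1, STAG2, PDS5A, PDS5B, WAPL, NIPBL and CTCF. They are 10 of the 61860 genes in the deposited expression table, each matched by its name to 1 row. The set was chosen by a measured value of these same libraries, since PDS5B had one of the largest rises of a protein-coding gene with Oligonol. The IR+Oligonol group holds 3 libraries of cells that received Oligonol at 500 ng/mL for 24 h, and the IR control group holds 3 libraries without it. Both groups are SH-SY5Y, a human neuroblastoma cell line, differentiated with all-trans retinoic acid in MEM with serum and then made insulin resistant (IR) by insulin at 100 nM with D-glucose at 30 mM for 24 h. Oligonol is a low-molecular-weight polyphenol preparation from lychee fruit. SH-SY5Y is 1 cell line, the labels name no group without insulin resistance, and they do not say whether the replicates were separate cultures, so a p-value given here speaks for the spread of these 6 libraries alone, which may be technical. The libraries hold bulk total RNA, so a higher level cannot be told apart from a larger number of cells that express the gene.

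Cohesin is a ring of SMC1A, SMC3 and the kleisin RAD21, to which either STAG1 or STAG2 is bound. NIPBL loads the ring onto DNA and drives loop extrusion, WAPL takes it off, and PDS5A and PDS5B bind the ring and take part both in its release and in its protection. CTCF binds DNA and stops the ring, which sets the ends of chromatin loops. In neurons that have left the cell cycle, cohesin acts on gene expression through these loops, and in dividing cells it also holds sister chromatids together.

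The level of every one of the 10 genes was higher in each IR+Oligonol library than in any IR control library, as it was for 33.9% of all 16574 genes tested. The fold change ran between 1.52 for SMC1A and 5.44 for PDS5B, with STAG1 at 3.64-fold and NIPBL at 3.43-fold. The sum over the 10 genes was 48.8, 38.1 and 44.6 counts per 1000000 (CPM) in the IR+Oligonol libraries, against 18.5, 22.3 and 17.8 CPM in the IR control libraries. Its mean was 43.8 ± 5.39 CPM in IR+Oligonol and 19.5 ± 2.43 CPM in IR control (SD, n = 3 each). The transcripts of most of these genes are poor in G and C, and across all protein-coding genes the fold change followed GC content, so each fold change is given as fitted and with that trend removed.

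The promoters of PDS5B and PDS5A are shown because this pair of paralogues parted more than STAG1 and STAG2 did, at 5.44-fold and 2.41-fold. Each is the 250 bases before the gene's start in RefSeq (GRCh38.p14), PDS5B at chr13:32586202-32586451 on the plus strand and PDS5A at chr4:39977912-39978161 on the minus strand, printed 5′ to 3′ in the direction of the gene. Capitals mark the GC box (GGGCGG) and the CCAAT box (CCAAT), each searched on both strands and read as CCGCCC and ATTGG where it lies on the other one.
PDS5B: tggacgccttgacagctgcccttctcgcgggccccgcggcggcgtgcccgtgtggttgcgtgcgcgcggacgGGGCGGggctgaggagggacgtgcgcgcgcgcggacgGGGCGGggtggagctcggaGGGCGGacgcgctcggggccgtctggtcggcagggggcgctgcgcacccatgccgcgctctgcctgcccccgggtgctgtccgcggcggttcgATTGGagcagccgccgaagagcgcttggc
PDS5A: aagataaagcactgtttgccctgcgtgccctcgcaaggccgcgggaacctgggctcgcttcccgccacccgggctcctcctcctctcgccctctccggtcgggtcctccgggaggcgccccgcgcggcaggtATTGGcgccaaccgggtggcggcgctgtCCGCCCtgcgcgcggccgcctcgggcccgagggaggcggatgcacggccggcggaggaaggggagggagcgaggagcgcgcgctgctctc
The PDS5B window held 3 GC boxes and 1 CCAAT box, and the PDS5A window held 1 of each, with no match overlapping another. A GC box stood in all 12 windows of the 9 cohesin genes with a RefSeq entry and in 42.6% of the 35116 promoter windows of all genes. A CCAAT box stood in 6 of the 12 windows, those of STAG1, PDS5A, WAPL and PDS5B and 2 of the 3 of STAG2, and in 32.0% of all windows. The ETS core CCGGAAGT was found once, in the NIPBL window, and in 3.42% of all windows. The letters TATAAA of the TATA box were in none of the 12 windows, and in 10.7% of all windows. The windows of the 9 genes ranged between 52.8% GC for SMC3 and 78.0% for PDS5B, with a median of 58.0% over all windows. The 2 promoters printed above are thus rich in G and C, at 78.0% for PDS5B and 75.2% for PDS5A, while the median transcript was 36.5% GC for PDS5B and 41.1% for PDS5A. RAD21 had no entry.

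All values below are CPM from counts rounded to whole numbers, after scaling of the library totals by the trimmed mean of M-values (TMM). The deposited counts behave as counts per transcript length, which was checked on genes with 1 transcript alone. The cohesin genes have between 2 and 18 annotated transcripts, and whether GC content shifts levels between genes was not tested. Comparisons of CPM between genes are therefore approximate. The total estimated count was 19457923, 20912945 and 20100206 in the IR+Oligonol libraries, against 22738203, 25328857 and 32209583 in the IR control libraries. Protein-coding genes held 12.3%, 10.0% and 11.8% of these counts in IR+Oligonol, against 6.83%, 6.73% and 6.24% in IR control. The median GC content of the protein-coding counts was 51.2%, 54.1% and 51.6% in IR+Oligonol, against 56.2%, 56.3% and 56.0% in IR control, and it moved with every fold change given here. The second IR+Oligonol library lay between the others of its group and the controls in that measure. Of 10 noradrenergic neuroblastoma markers, 9 were expressed above the filter on low counts, among them DBH, the enzyme that makes noradrenaline, at 10.8 ± 2.02 CPM in IR+Oligonol and 16.7 ± 4.19 CPM in IR control (SD, n = 3 each). TH, the first enzyme of catecholamine synthesis, reached at most 1.79 estimated counts in any library. The filter was passed by 1 of 6 glia markers (GFAP), 2 of 5 fibroblast markers (COL3A1 and DCN), 1 of 4 blood cell markers (CD68) and 0 of 3 endothelium markers.

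**Figure D1:**
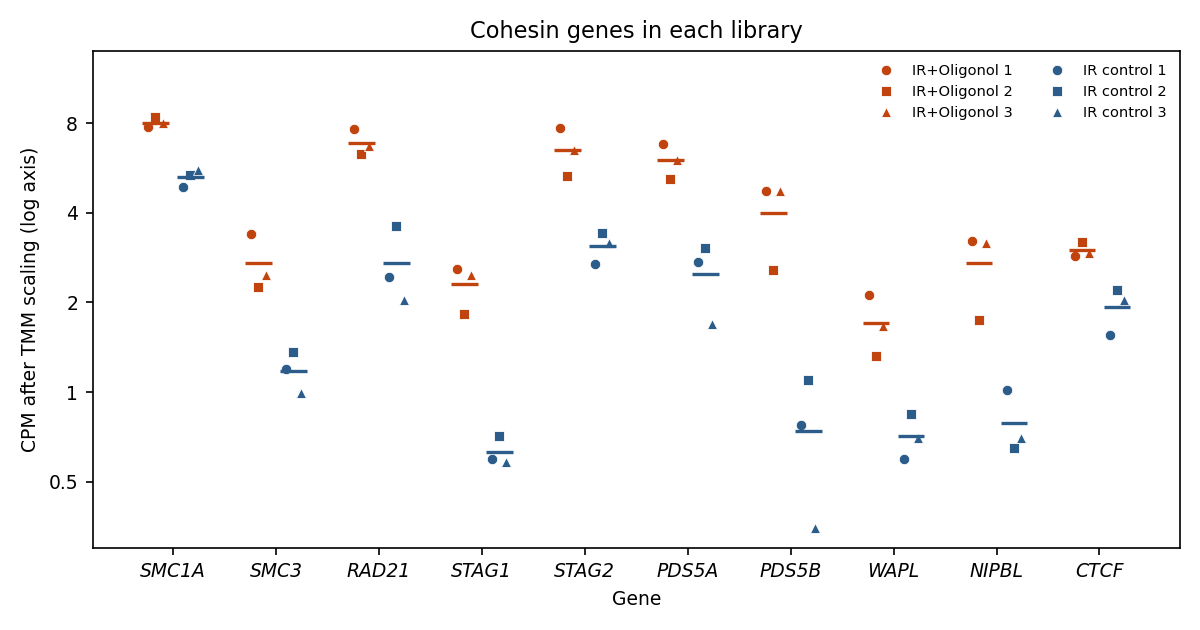
Level of each cohesin gene in each library, in CPM after TMM scaling on a log axis, with IR+Oligonol in orange left of IR control in blue. Symbols are the 3 libraries of a group and the bar is their mean. In all 10 genes the lowest orange symbol lies above the highest blue one, and the second IR+Oligonol library (square) is the lowest orange symbol in 8 genes.

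Among the ring proteins, SMC1A (ENSG00000072501, chrX:53374149-53422728), one of the SMC arms, stood at 7.78, 8.36 and 7.98 CPM in the IR+Oligonol libraries, against 4.89, 5.37 and 5.55 CPM in the IR control libraries. SMC3 (ENSG00000108055, chr10:110567684-110606048), the other arm and the subunit whose acetylation locks the ring, had 3.39, 2.25 and 2.48 CPM in IR+Oligonol, against 1.19, 1.36 and 0.994 CPM in IR control. The kleisin RAD21 (ENSG00000164754, chr8:116845934-116874776), which closes the ring and is cut by separase at anaphase, had 7.62, 6.30 and 6.71 CPM in IR+Oligonol, against 2.44, 3.62 and 2.05 CPM in IR control. The groups did not overlap for any of these ring genes, and SMC1A was the one with the tightest replicates. Its log2 fold change was 0.61 (SE 0.16), that of SMC3 was 1.20 (SE 0.24) and that of RAD21 was 1.35 (SE 0.23).

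The STAG proteins are alternative subunits that direct the ring to different sites. STAG1 (ENSG00000118007, chr3:136336236-136752403) had 2.59, 1.83 and 2.48 CPM in IR+Oligonol, against 0.596, 0.712 and 0.584 CPM in IR control. STAG2 (ENSG00000101972, chrX:123960212-124422664), the more abundant of the pair in every library, had 7.72, 5.33 and 6.48 CPM in IR+Oligonol, against 2.68, 3.43 and 3.16 CPM in IR control. Neither gene's groups overlapped, and the lowest STAG1 value with Oligonol was 1.83 CPM where the highest control value was 0.712 CPM. The log2 fold change was 1.86 (SE 0.24) for STAG1 and 1.08 (SE 0.21) for STAG2.

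PDS5B (ENSG00000083642, chr13:32586452-32778019) had 4.73, 2.57 and 4.73 CPM in IR+Oligonol, against 0.775, 1.10 and 0.351 CPM in IR control. The groups did not overlap, but PDS5B had the widest spread of the set, with the second IR+Oligonol library at 0.543 times the mean of the other 2. PDS5A (ENSG00000121892, chr4:39822863-39977956) had 6.79, 5.21 and 5.99 CPM in IR+Oligonol, against 2.74, 3.04 and 1.69 CPM in IR control, again with no overlap. The log2 fold change was 2.44 (SE 0.41) for PDS5B and 1.27 (SE 0.24) for PDS5A. Among protein-coding genes with a mean log2 CPM of at least 1, no overlap between groups and an adjusted p under 0.05, PDS5B held place 4 by fold change. The last gene inside the first 10 was VPS13A at 2.24 and the first outside was PPP1CB at 2.20, so PDS5B was not at the edge of that choice. With none of these conditions PDS5B held place 12 among the 11728 protein-coding genes tested, STAG1 place 157 and NIPBL place 229, while SMC1A was at place 3696. With the GC trend removed, PDS5B held place 98, STAG1 place 409, NIPBL place 671 and SMC1A place 1644.

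WAPL (ENSG00000062650, chr10:86435256-86521792), which opens the ring and releases it from DNA, had 2.11, 1.32 and 1.67 CPM in IR+Oligonol, against 0.596, 0.841 and 0.701 CPM in IR control. NIPBL (ENSG00000164190, chr5:36876769-37066413), the loader, had 3.21, 1.75 and 3.17 CPM in IR+Oligonol, against 1.01, 0.647 and 0.701 CPM in IR control. CTCF (ENSG00000102974, chr16:67562467-67639177), the boundary factor, had 2.86, 3.19 and 2.94 CPM in IR+Oligonol, against 1.55, 2.20 and 2.05 CPM in IR control. None of the 3 genes overlapped between groups, and as a ratio CTCF came closest, with 2.86 CPM in its lowest IR+Oligonol library and 2.20 CPM in its highest control. The log2 fold change was 1.26 (SE 0.27) for WAPL, 1.78 (SE 0.31) for NIPBL and 0.63 (SE 0.19) for CTCF.

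In edgeR's quasi-likelihood fit over all 16574 tested genes, all 10 cohesin genes passed an adjusted p of 0.05 on the higher side, where 26.0% of all tested genes did so and 23.0% passed on the lower side. Since the rise of PDS5B in this contrast chose the set, nothing is read from this count or from the lack of overlap. Among protein-coding genes within 1 percentage point of a cohesin gene's GC content, larger shares passed on the higher side for most of the set. The share was 12.6% at SMC1A and 45.6% at CTCF, and between 64.6% and 74.3% at the other cohesin genes. The median log2 fold change was 1.26 over the 10 genes, 0.15 over all tested genes and 0.03 over the protein-coding ones. In read equivalents, an approximate conversion through transcript length, the cohesin values rested on between 90.6 reads (PDS5B in the third IR control library) and 3328 reads (SMC1A in the third IR+Oligonol library). The deposited counts were smaller, at 5.86 for PDS5B and 10.35 for STAG1 in the third IR control library, and were rounded before the fit.

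The order of levels within the set can be read without the contrast when each group is taken alone. In the IR control libraries SMC1A was highest at 5.27 ± 0.344 CPM and its range did not reach the next gene. STAG2 at 3.09 ± 0.378, RAD21 at 2.70 ± 0.820, PDS5A at 2.49 ± 0.707 and CTCF at 1.93 ± 0.340 CPM followed, each overlapping its neighbour in range (SD, n = 3). SMC3 at 1.18 ± 0.183, NIPBL at 0.787 ± 0.198, PDS5B at 0.742 ± 0.376, WAPL at 0.713 ± 0.123 and STAG1 at 0.631 ± 0.0704 CPM formed the lower end, again with neighbours that overlapped. Against all protein-coding genes tested, SMC1A lay at percentile 74.4 and STAG1 at percentile 13.7 of the control levels. The 2 arms of the ring, which enter it in equal number as proteins, thus stood 4.89, 5.37 and 5.55 CPM for SMC1A beside 1.19, 1.36 and 0.994 CPM for SMC3 in the same control libraries. The GC content is 50.1% for SMC1A and 40.4% for SMC3, and its part in that difference was not tested. In the IR+Oligonol libraries SMC1A was still highest at 8.04 ± 0.295 CPM, followed by RAD21 at 6.88 ± 0.674 CPM, STAG2 at 6.51 ± 1.20 CPM and PDS5A. PDS5B came next at 4.01 ± 1.25 CPM, at percentile 69.9 of the protein-coding genes, against percentile 17.8 in IR control. That change of place belongs to the contrast that chose PDS5B, so nothing is read from it. CTCF at 3.00 ± 0.171, SMC3 at 2.71 ± 0.604, NIPBL at 2.71 ± 0.831, STAG1 at 2.30 ± 0.413 and WAPL at 1.70 ± 0.396 CPM made up the rest, each overlapping its neighbour.

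As shares of the summed level, which leave out any change common to the set, PDS5B made up 9.01 ± 2.02% in IR+Oligonol and 3.70 ± 1.54% in IR control, and STAG1 made up 5.22 ± 0.386% in IR+Oligonol and 3.23 ± 0.0452% in IR control. STAG1 had only 10.47, 11.18 and 10.35 counts in the IR control libraries before rounding, so its small SD there overstates the precision. The share of SMC1A was 18.6 ± 3.06% in IR+Oligonol and 27.2 ± 3.61% in IR control, and that of CTCF was 6.94 ± 1.29% in IR+Oligonol and 9.91 ± 1.54% in IR control (SD, n = 3 each). The shares of SMC3 and WAPL differed by less than the spread between replicates, at 6.14 ± 0.728% and 3.85 ± 0.438% in IR+Oligonol, against 6.04 ± 0.441% and 3.64 ± 0.371% in IR control. Shares do not leave out the GC trend. PDS5B has the lowest GC content of the set at 36.5%, and SMC1A and CTCF have the highest at 50.1% and 45.8%. With coding transcripts alone PDS5B has 39.2%, and SMC3 is lower at 38.9%. With the GC trend removed, the log2 fold change of SMC1A was 0.49 beside a median of 0.41 over the set. A larger share of PDS5B, whose rise chose the set, also makes the other shares smaller.

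The balance between related subunits was taken in each library. The ratio of STAG2 to STAG1 was 2.98, 2.91 and 2.62 in the IR+Oligonol libraries, against 4.50, 4.82 and 5.40 in the IR control libraries. Its mean was 2.84 ± 0.194 in IR+Oligonol and 4.91 ± 0.457 in IR control (SD, n = 3 each), a log2 difference of -0.79. The groups were well apart, and of the 3 ratios given here this one varied least within groups. STAG1 had 10.47, 11.18 and 10.35 counts in the IR control libraries before rounding, so the control ratios are coarse. Both genes have nearly the same GC content, 41.1% for STAG2 and 40.7% for STAG1, and the difference between their fitted log2 fold changes was -0.77 with the GC trend removed.

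The ratio of PDS5B to PDS5A was 0.697, 0.493 and 0.789 in IR+Oligonol, against 0.283, 0.362 and 0.207 in IR control. Its mean was 0.659 ± 0.152 in IR+Oligonol and 0.284 ± 0.0774 in IR control, a log2 difference of 1.23, or 0.95 between the fitted values with the GC trend removed. PDS5A remained the more abundant of the 2 in all 6 libraries, and the groups did not overlap. The ratio of SMC3 to SMC1A was 0.436, 0.270 and 0.311 in IR+Oligonol, against 0.244, 0.253 and 0.179 in IR control. That ratio was higher with Oligonol by 0.58 on the log2 scale, but the groups lay close together, and between the fitted values with the GC trend removed the difference was -0.28. The GC contents of that pair are far apart, at 40.4% for SMC3 and 50.1% for SMC1A. All these ratios come from the contrast that chose PDS5B and are given without a test.

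**Figure D2:**
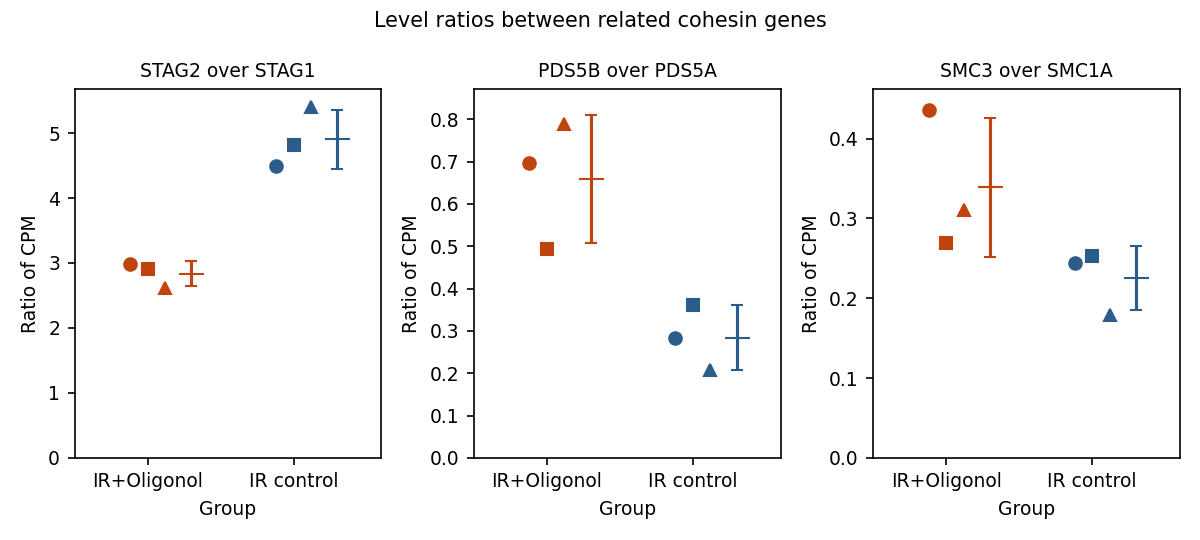
Ratio of CPM between related cohesin genes in each library, with IR+Oligonol in orange left of IR control in blue. Symbols are libraries, and the bar beside them is the mean with its SD (n = 3). STAG2 over STAG1 averages 2.84 with Oligonol and 4.91 without, PDS5B over PDS5A averages 0.659 with Oligonol and 0.284 without, and SMC3 over SMC1A differs least.

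Most of the cohesin genes, though not SMC1A, have transcripts that are AT-rich for protein-coding genes. The GC content of the 10 genes, as the median over each gene's annotated transcripts, ranged between 36.5% for PDS5B and 50.1% for SMC1A with a median of 40.9%, where the median over protein-coding genes was 50.3%. All 10 lay below that median, and 8 lay in the 2 lowest of 10 equal bins of genes by GC content. Over the 11719 protein-coding genes with a GC value, which share the same libraries and do not count as replicates, the log2 fold change and GC content had a Spearman's rho of -0.851. The median log2 fold change was 1.20 in the bin of lowest GC content, which holds PDS5B, NIPBL and WAPL, and -1.05 in the bin of highest GC content, which holds no cohesin gene. GC content thus moved with the result.

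Each gene can be set beside the protein-coding genes within 1 percentage point of its own GC content. PDS5B at 2.44 stood above 99.1% of 212 such genes, whose median was 1.26, but it was chosen for a large rise, so its high place is no result. STAG1 at 1.86 stood above 96.5% of its like, with a median of 1.05, and NIPBL at 1.78 above 93.7%, with a median of 1.13. SMC1A at 0.61 was above 84.2% of genes of like GC content, which had a median of only 0.12, and RAD21 at 1.35 above 78.7%, with a median of 0.94. The place of SMC1A rests on 50.1% GC over all its transcripts, where its coding transcripts alone have 48.3%. That of PDS5B rests on 36.5% GC over 9 transcripts, where its 2 coding ones have 39.2%. The other 5 lay within the middle 50% of their like, with SMC3 at 1.20 beside a median of 1.07, STAG2 at 1.08 beside 1.02, PDS5A at 1.27 beside 1.02, WAPL at 1.26 beside 1.16 and CTCF at 0.63 beside 0.65.

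With the GC trend of each library removed, the log2 fold change of PDS5B was 1.29 (SE 0.26), that of STAG1 was 0.89 (SE 0.15) and that of NIPBL was 0.74 (SE 0.26). It was 0.50 (SE 0.16) for RAD21, 0.49 (SE 0.10) for SMC1A and 0.34 (SE 0.15) for PDS5A. WAPL at 0.22 (SE 0.19), SMC3 at 0.21 (SE 0.15), STAG2 at 0.12 (SE 0.14) and CTCF at 0.05 (SE 0.19) were nearest to 0. All 10 stayed above 0, with a median of 0.41, and 3 passed the threshold (PDS5B, STAG1 and SMC1A), where 2.89% of the 16200 genes in that fit passed on the higher side. It is the same contrast that chose the set, so nothing is read from that count either. With any 1 of the 6 libraries left out of that fit, 0 of the 10 passed, where between 0 and 639 of all its genes passed on the higher side. With the trend taken on the GC of coding transcripts instead, the log2 fold change of SMC1A was 0.27 (SE 0.115), and SMC1A did not pass. That of PDS5B was 1.43 (SE 0.287) in the same fit.

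**Figure D3:**
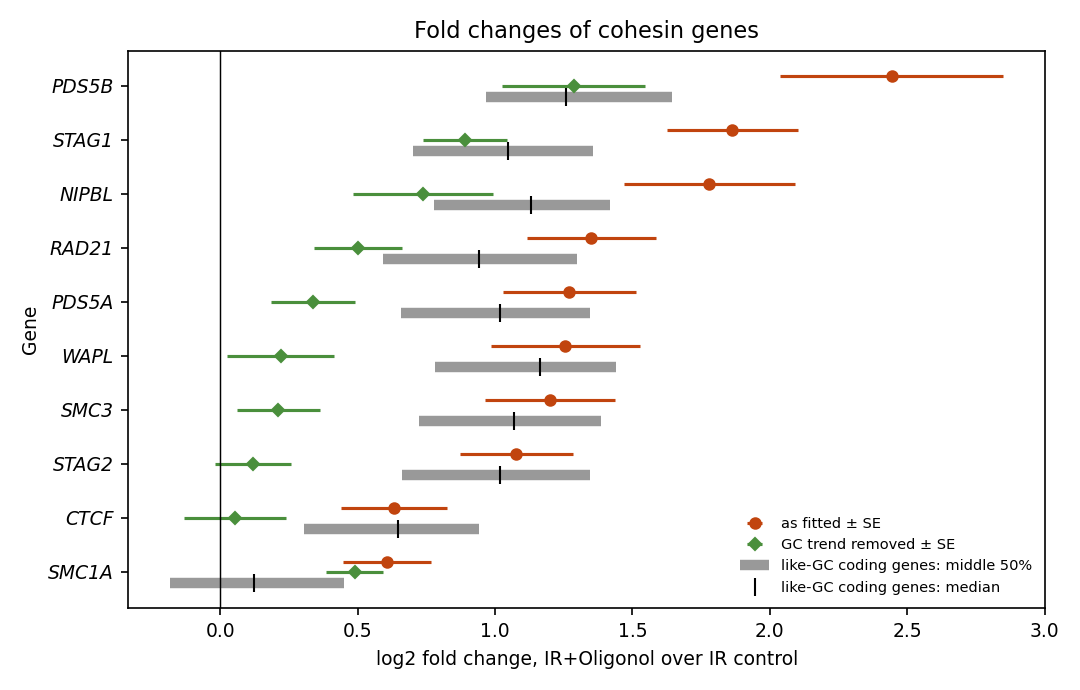
Log2 fold change of IR+Oligonol over IR control for each cohesin gene, as fitted (orange circle) and with the GC trend removed (green diamond), each with its SE. Grey bars hold the middle 50% of protein-coding genes within 1 percentage point of the same GC content and black ticks their median. PDS5B, STAG1 and NIPBL lie right of their grey bars, at 2.44, 1.86 and 1.78, as RAD21 and SMC1A do by less, while CTCF, STAG2, SMC3, WAPL and PDS5A lie inside theirs.

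**Figure D4:**
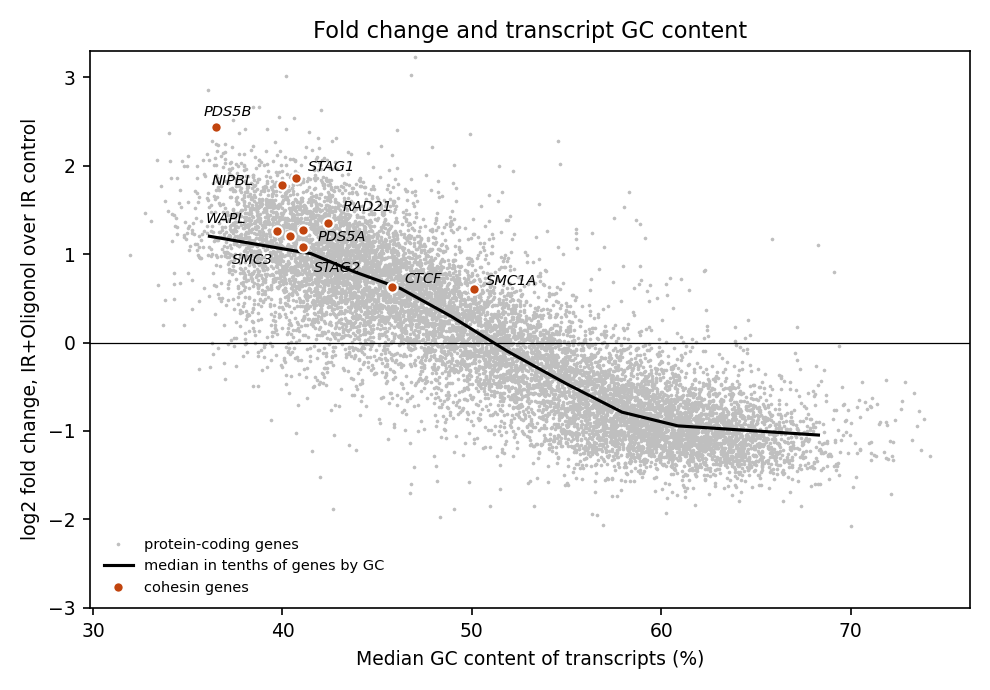
Log2 fold change of IR+Oligonol over IR control against the median GC content of a gene's transcripts, for 11717 protein-coding genes (grey; 2 more lie outside the axis) and the cohesin genes (orange). The black line joins the medians in 10 equal bins by GC content, from 1.20 at the lowest to -1.05 at the highest, and the orange points lie near it or above it, at its left side.

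The second IR+Oligonol library was the lowest of its group for 8 of the 10 cohesin genes, all but SMC1A and CTCF, the 2 with the highest GC content. Its level over the mean of the other 2 libraries ranged between 0.543 for PDS5B and 1.10 for CTCF, with a median of 0.759. The same library had the highest GC content of its group, 54.1% beside 51.2% and 51.6%. Without it the log2 fold change of PDS5B was 2.67, and without the third IR control library, where PDS5B was lowest, it was 2.10. Over the 6 fits that left out 1 library, the log2 fold change of PDS5B ran between 2.10 and 2.83, a range that the choice of PDS5B by its rise in these libraries helped to set. CTCF lost the threshold in 4 of these 6 fits and SMC1A in 3.

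Genes that act on the ring but are not part of the set are read against the shares of all tested genes, 26.0% higher and 23.0% lower. Higher and lower hold after TMM scaling, since with library totals alone the median log2 fold change of all tested genes was 1.53 in place of 0.15, and 37 genes in all were lower at the same threshold. Of the 5 genes of loading and acetylation, 2 rose and 2 fell at an adjusted p under 0.05 (edgeR's quasi-likelihood test, Benjamini-Hochberg over all 16574 genes). HDAC8, the deacetylase that recycles SMC3, averaged 5.29 ± 1.09 CPM in IR+Oligonol and 2.77 ± 0.295 CPM in IR control, a log2 fold change of 0.94 (SE 0.21, adjusted p = 0.0117). ESCO2, the acetyltransferase active in S phase, rose by 1.26 on the log2 scale (SE 0.24, adjusted p = 0.00873), while ESCO1, which acetylates SMC3 outside S phase, had 0.64 (SE 0.55, adjusted p = 0.36). MAU2, the partner that holds NIPBL in the loader, averaged 5.16 ± 1.40 CPM in IR+Oligonol and 9.61 ± 0.452 CPM in IR control and fell by 0.90 on the log2 scale (SE 0.22, adjusted p = 0.0147). CDCA5, or sororin, which keeps WAPL off the acetylated ring, fell by 0.88 on the log2 scale (SE 0.26, adjusted p = 0.0246). Of the 2 parts of the loader, NIPBL at 40.0% GC was higher and MAU2 at 59.0% GC lower. The list's median was 0.64, against 0.15 for all tested genes, and with the GC trend removed none of the 5 passed and the median was -0.11. Without the first or the third IR+Oligonol library 0 of the 2 falls passed, and without the second or the third IR control library 1 did.

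Among 8 genes of cohesin protection and cleavage, 3 rose (SGO1, SGO2 and BUB1) and 2 fell, beside the 26.0% and 23.0% of all tested genes. ESPL1, or separase, which cuts RAD21, fell by 0.87 on the log2 scale (SE 0.19, adjusted p = 0.0105), and AURKB, a kinase of the chromosomal passenger complex, fell by 0.90 on the log2 scale (SE 0.20, adjusted p = 0.0116). The list's median was -0.20, and with the GC trend removed none of the 8 passed and the median was -0.05. The rises numbered 0 without the first or the third IR+Oligonol or the third IR control library and 1 without the first IR control library, and the falls numbered 1 without the first or the third IR+Oligonol library. Among 8 genes that tie cohesion to replication, 2 rose and 3 fell, near the shares of all tested genes, with a median of 0.26, and none passed with the GC trend removed, where the median was -0.08. WDHD1, a replisome adaptor, rose by 1.59 on the log2 scale (SE 0.30, adjusted p = 0.00856), with CLSPN the other that rose, and CHTF8, a part of an alternative clamp loader, fell by 1.02 on the log2 scale (SE 0.20, adjusted p = 0.00912), with CHTF18 and DDX11 the others. Of 4 meiotic cohesin genes, 2 passed the filter and none changed past the threshold. However, 1 fell with RLE scaling, DESeq2, limma-voom, protein-coding genes alone or read equivalents, and without the second IR+Oligonol library. With library totals 2 rose. REC8, the meiotic kleisin, was at 8.43 ± 2.32 CPM in IR+Oligonol and 13.2 ± 1.33 CPM in IR control (adjusted p = 0.0519). STAG3, the meiotic STAG protein, was at 3.05 ± 0.0491 CPM in IR+Oligonol and 3.25 ± 0.359 CPM in IR control (adjusted p = 0.676).

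In the related SMC complexes most rises fell within the range of the set. NCAPD3 at 0.55 and SLF2 at 0.58 on the log2 scale lay below it. Of 8 condensin genes, 4 rose and 1, NCAPH2, fell, beside 26.0% and 23.0% of all tested genes, with a median of 0.56. SMC4, an arm of both condensins, averaged 9.98 ± 1.41 CPM in IR+Oligonol and 3.01 ± 0.973 CPM in IR control, a log2 fold change of 1.74 (SE 0.27, adjusted p = 0.00658). NCAPG, a condensin I subunit, averaged 3.18 ± 0.735 CPM in IR+Oligonol and 0.956 ± 0.119 CPM in IR control, a log2 fold change of 1.74 (SE 0.24, adjusted p = 0.0062), and it alone of the list passed with the GC trend removed, at 0.66 (adjusted p = 0.0485). SMC2 and NCAPD3 were the others that rose. Without the first or the third IR+Oligonol or the third IR control library 2 condensin genes rose, and without the second IR+Oligonol library 2 fell. With the GC trend removed, the number that passed was 0 with any 1 library left out and with the replicate block, and 2 with the GC of coding transcripts. Of 9 genes of the SMC5/6 complex and its recruiters, 8 were tested, 3 rose (SMC5, SLF1 and SLF2) and none fell, with a median of 0.66, and the rises numbered 1 without the first IR+Oligonol library. SMC5, one of its arms, averaged 1.57 ± 0.262 CPM in IR+Oligonol and 0.391 ± 0.177 CPM in IR control, a log2 fold change of 2.00 (SE 0.35, adjusted p = 0.00774), and SLF1, a recruiter, had 1.11 (SE 0.26, adjusted p = 0.013). In other settings 5 rose with protein-coding genes alone, at least 10 counts in every library or read equivalents, and 2 with RLE scaling or DESeq2. With the GC trend removed, none of the 8 passed.

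Of 11 architectural and CTCF-associated factors, 10 were tested, 3 rose and 3 fell, near the 26.0% and 23.0% of all tested genes, with a median of 0.27. The falls numbered 0 without the third IR+Oligonol library and 1 without the first IR+Oligonol or the second IR control library. SMCHD1, an SMC-hinge protein of the inactive X chromosome and of silenced gene clusters, averaged 6.58 ± 1.59 CPM in IR+Oligonol and 1.49 ± 0.321 CPM in IR control, a log2 fold change of 2.15 (SE 0.26, adjusted p = 0.00601). It was 0.98 (SE 0.12, adjusted p = 0.0227) with the GC trend removed, and no other gene of the list passed there, nor did SMCHD1 without the first or the third IR+Oligonol or the second or the third IR control library or with the replicate block. ADNP, which competes with CTCF for sites, rose by 1.12 on the log2 scale (SE 0.19, adjusted p = 0.00727), and VEZF1 was the other that rose. MAZ, PATZ1 and LDB1 fell. Of 54 clustered protocadherins, neuronal surface proteins whose promoter choice depends on CTCF and cohesin, 15 passed the filter, 1 rose (PCDHGA10) and 2 fell, below the shares of all tested genes. The rise was lost without any 1 library but the first IR control library, and both falls without the first or the third IR+Oligonol library. With DESeq2 or limma-voom 0 rose, but 3 rose with at least 10 counts in every library and 10 in read equivalents. The place of this list below the shares of all tested genes thus depends on the processing of low counts. PCDHGC4 fell by 0.83 on the log2 scale (SE 0.19, adjusted p = 0.0117) and PCDHGC3 fell by 0.74 on the log2 scale (SE 0.18, adjusted p = 0.0143), and neither passed with the GC trend removed. Genes of the alpha and gamma protocadherin clusters share their last exons, so how the authors' estimates divided reads among them is uncertain.

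Of 10 mitosis markers, 5 rose and 1, BIRC5, fell, beside 26.0% and 23.0% of all tested genes, with a median of 0.58. Without the first or the third IR+Oligonol library 3 rose, and there and without the second or the third IR control library 0 fell. CDK1, the mitotic kinase, averaged 4.01 ± 0.679 CPM in IR+Oligonol and 1.74 ± 0.488 CPM in IR control, a log2 fold change of 1.21 (SE 0.25, adjusted p = 0.00993). TOP2A, the topoisomerase of dividing cells, averaged 5.30 ± 0.214 CPM in IR+Oligonol and 2.49 ± 0.984 CPM in IR control, a log2 fold change of 1.10 (SE 0.26, adjusted p = 0.0133). The others that rose were MKI67, CCNB1 and CENPF. With the GC trend removed none of the 10 passed, and the median was -0.21. Their part in the cohesin levels was not tested.

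**Figure D5:**
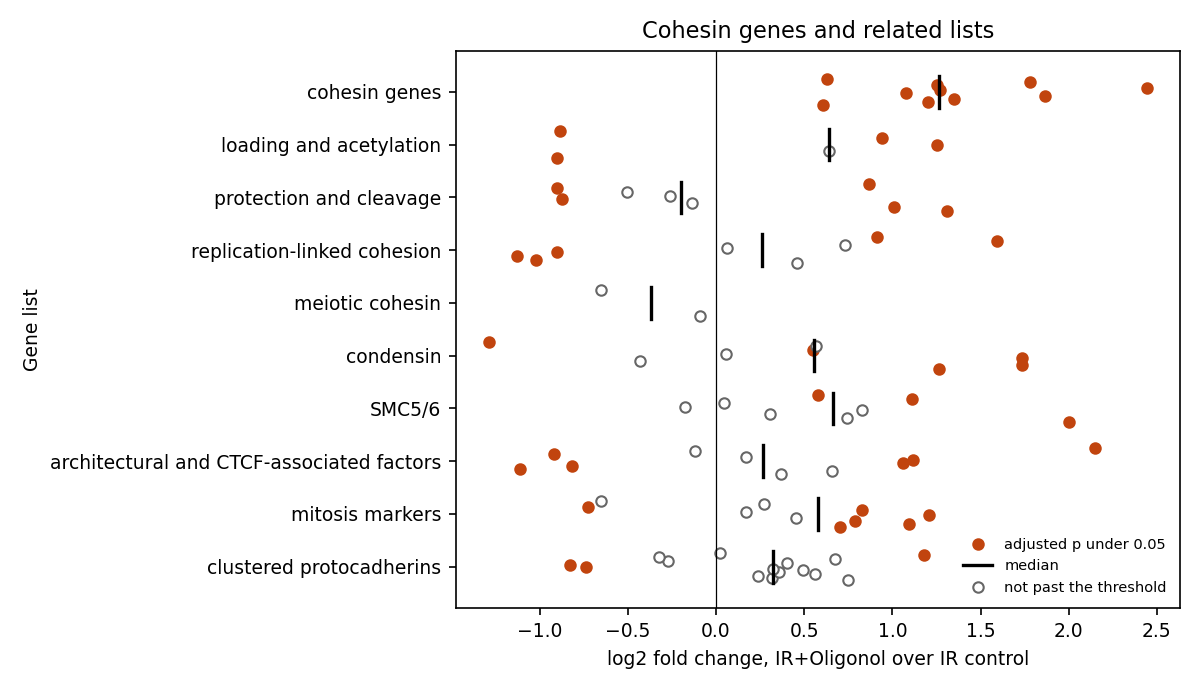
Log2 fold change of IR+Oligonol over IR control for the cohesin genes and each related list, 1 circle per tested gene. Filled circles passed an adjusted p of 0.05 over all tested genes, and black bars are list medians. The cohesin genes all lie right of 0 with a median of 1.26, and the medians of the related lists lie between -0.37 and 0.66.

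The genes nearest to PDS5B over the 6 libraries, by Euclidean distance between centred log2 CPM among 6767 protein-coding genes with a mean log2 CPM of at least 1, were PPP1CB, a catalytic subunit of protein phosphatase 1, at 0.44, PGAP1, an enzyme of GPI-anchor remodelling, at 0.51, and MIER3 at 0.52. MYEF2 at 0.53 and FBXO38, an F-box protein, at 0.54 came next. Their transcripts had between 36.5% and 42.4% GC, and their log2 fold changes lay between 1.99 and 2.42. The nearest cohesin gene was STAG1 at 1.24, followed by NIPBL at 1.43 and RAD21 at 1.49, and the farthest was SMC1A at 2.56. These distances are a description over libraries that share 1 contrast.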

How the data were processed

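RNA-seq of 6 SH-SY5Y libraries (3 IR+Oligonol, 3 IR control) was analysed from 1 table of 61860 genes. Per the submitters' processing notes, FastQC, kallisto 0.46.1, edgeR and the build GRCh38.p13 were used, with no role or order given. The authors deposited estimated counts, which are not whole numbers, and a signal that equals these counts times 1 constant per library. Their counts behave as abundances per transcript length: times effective length, between 68.4% and 71.7% of values of genes with 1 transcript of 500 to 1500 nt came within 0.05 of a whole multiple of a fitted scale, which was chosen to make that share large. A unit of 1 read per 1000-nt transcript was worth 0.418 to 0.545 counts in IR+Oligonol and 0.310 to 0.318 in IR control, so rounding to whole counts is coarse for low genes.

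Counts were rounded, filtered with filterByExpr, scaled by TMM and tested with edgeR 4.0.16 (R 4.3.3), robust quasi-likelihood, Benjamini-Hochberg over 16574 genes, threshold 0.05. CPM are means over 3 libraries with SD, and errors cover these libraries only. The GC trend was removed with an offset per library from a natural spline with 5 degrees of freedom on transcript GC content (GENCODE 29), fitted on protein-coding genes. The method was tested on simulated data. Alternatives were RLE, upper-quartile and library-total scaling, protein-coding genes alone, DESeq2 1.42.0, limma-voom 3.58.1, no filter, at least 10 counts in every library, read equivalents, other thresholds, a replicate block, each library left out, and the deposited signal for ratios. The GC of coding transcripts and the ratios without the GC trend were added after seeing the data.

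The members and lists were chosen with earlier results of these data known, so member contrasts carry no p-value. Named genes were the members, the genes of the loading list, the 2 smallest p-values in each other list and the 5 genes nearest to PDS5B. Other list genes were named beside small counts after their values were seen. Promoters came from RefSeq (GRCh38.p14).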

Additional observations from a re-analysis of the deposited data

How the results depend on the processing

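All 10 cohesin genes kept a higher level in IR+Oligonol under every scaling, tool, filter and threshold that tested them, and with each library left out. With the GC trend removed as well, CTCF alone turned, to -0.071 without the second IR+Oligonol library and -0.084 without the first IR control library. The number past the threshold was 10 and fell to 3 with the GC trend removed and to 2 with the GC of coding transcripts (SMC1A lost). It fell to 0 with the GC trend removed and the replicate block, where 3996 genes had an unadjusted p under 0.05. It was 9 with DESeq2 (CTCF lost), 8 with no filter (SMC1A and CTCF lost), 7 at a threshold of 0.01 and 9 of 9 tested with at least 10 counts in every library, a filter that removed PDS5B. Leaving out 1 library gave 8 to 10, and 0 with the GC trend removed. In read equivalents all 10 passed.

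Over all tested genes, 4304 were higher and 3808 lower. These counts were 468 and 414 with the GC trend removed, 620 and 534 with the GC of coding transcripts, 0 and 0 with the GC trend removed and the replicate block, 1401 and 779 at a threshold of 0.01, 1603 lower with no filter, and 11293 and 37 with library totals, which moved the median log2 fold change of all genes to 1.53 from 0.15 and that of the cohesin genes to 2.67. DESeq2 called 3144 higher and 3999 lower. Leaving out 1 library gave 2118 to 4540 higher and 1321 to 4381 lower. The lowest counts came without the first (2225 and 1459) or the third (2118 and 1321) IR+Oligonol library, and the lower calls were 2387 without the second and 2466 without the third IR control library. With the GC trend removed as well, the ranges were 0 to 639 higher and 0 to 666 lower (296 and 313 without the second IR+Oligonol library, 0 and 2 without the first, 32 and 17 without the third IR control library), and the fits without the third IR+Oligonol or the second IR control library, which called 0 and 0, had 3050 and 3441 genes with an unadjusted p under 0.05.

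Deviations from the group means correlated at 0.087, -0.009 and -0.147 between same-numbered libraries, within the range of differently numbered ones (-0.186 to 0.191). With 3 libraries a group these values cannot tell whether same-numbered libraries were handled together. A replicate block gave 3560 higher and 3470 lower and 9 cohesin genes, CTCF lost. The ratio of SMC3 to SMC1A turned to -0.279 (log2 difference) with the GC trend removed, and the other ratios kept their sign in all alternatives. The causes were not tested. Precision is limited by 3 libraries a group and, for PDS5B in the third IR control library, by about 90.6 reads.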

Other observations

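Some cohesin genes share sequence or position with other annotated genes, and the sources used here do not give the strand setting behind the authors' estimates. Of the 31-base words in the annotated transcripts, 10.5% for SMC3, 7.73% for CTCF and 5.36% for RAD21 also occur in transcripts of other genes, among them a processed pseudogene for SMC3. The share was 2.01% for STAG2, 1.37% for PDS5A, 0.689% for WAPL, 0.255% for NIPBL and 0.166% for PDS5B, and 0 for SMC1A and STAG1. No such word was shared within the pairs PDS5A and PDS5B or STAG1 and STAG2. A protein-coding gene overlaps on the opposite strand at SMC1A (RIBC1), RAD21 (UTP23), STAG1 (PCCB) and STAG2 (TENM1), and none does at PDS5B, PDS5A, WAPL, NIPBL, SMC3 or CTCF. Overlap was taken over whole gene spans, introns included, so it does not show that transcripts overlap. Whether reads of the neighbour were counted for those 4 genes was not tested.

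Of the chosen cell markers, CHGA, a protein of secretory granules, fell to 21.6 ± 6.42 CPM in IR+Oligonol, against 41.1 ± 5.96 CPM in IR control (log2 fold change -0.93, adjusted p = 0.0257, edgeR's quasi-likelihood test), with a log2 fold change of 0.00 once the GC trend was removed. COL3A1, a fibrillar collagen, averaged 4.84 CPM in IR+Oligonol and 7.34 CPM in IR control and fell (log2 fold change -0.60, SE 0.20, adjusted p = 0.0391), and its log2 fold change was -1.09 (adjusted p = 0.0382) with the GC trend removed. That second call is fragile, since no gene passed on the lower side there with the replicate block. Nor did any without the third IR+Oligonol or the second IR control library.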
